A study of Homo sapiens with 5 samples.

Results

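The interferon-linked PARP genes PARP9, DTX3L, PARP14, PARP10, PARP12 and ZC3HAV1 were examined for H3K27ac near their transcription starts, with PARP1 and PARP2 as comparison genes of the same family. A peak was taken as a member when its center lay within 10 kb of a GENCODE release 44 transcription start of any of these 8 genes. This rule uses position only, and it found 11 of the 20087 peaks, of which 8 lay near the 6 interferon-linked genes and 3 near PARP1 or PARP2. The PARP9, DTX3L and PARP14 locus on chromosome 3 held 2 of these peaks and is also described separately.

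ChIP-seq for H3K27ac, an acetylation of histone H3 that marks active regulatory DNA, was done in HCT116 CMV-osTIR1 RAD21-mAC cells. HCT116 is a human colorectal carcinoma line, and this derivative carries the plant auxin receptor osTIR1 and a degron-tagged form of the cohesin subunit RAD21, in the IFN-β and the control cells alike. All cells received 0.1% DMSO for 6 h. The IFN-β group then received interferon beta at 1000 unit/ml for 60 min, and the control group received no further treatment. Each group had 2 libraries from 500000 cells per ChIP, and 1 input library was sequenced. The control titles give 0 min, so IFN-β and an added hour of culture cannot be told apart. Nothing in the labels says that the 2 libraries of a group came from separate cultures. The deposited table gives for each peak the log2 of the mean normalized reads over the 2 libraries of a group and no value per library. Each number below is therefore a group mean, with no SD and no test between groups. In place of a replicate error, a 95% interval for counting error is given, from an approximate number of reads per peak. The lowest value of each group was taken to be 2 reads over its 2 libraries. The spread between libraries is not in that interval and may be wider.

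ADP-ribosyltransferases of the PARP family attach ADP-ribose to proteins or nucleic acids. PARP1 and PARP2 build chains of it at DNA breaks, whereas PARP10, PARP12 and PARP14 add single units. PARP9 works with DTX3L, a ubiquitin ligase of the Deltex family, and ZC3HAV1 (ZAP or PARP13) is a zinc finger protein that binds CpG-rich viral RNA and has no transferase activity. Type I interferon acts through IFNAR1 and IFNAR2 and the kinases JAK1 and TYK2 to assemble the transcription factor complex ISGF3, which holds STAT2 and IRF9 and binds the interferon-stimulated response element (ISRE). The gamma-activated site (GAS) is a further sequence through which interferons act. PARP9, DTX3L, PARP14, PARP10, PARP12 and ZC3HAV1 are known interferon-stimulated genes in many cell types.

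Sequences are shown for the peaks in which an ISRE core was found, since the members differed in this feature. The core was searched as GAAANNGAAA on both strands within 500 bp of each peak center in GRCh38. It occurred in 4 of the 8 interferon-linked peaks and in 0 of the 3 PARP1 and PARP2 peaks, against 11.6% of all peaks and 8.66% of the 11334 peaks within 1 kb of a protein-coding start. Each stretch below is from the + strand, with the core in capitals and 10 bases on either side. The DTX3L and PARP9 stretch is chr3:122564322-122564351, that of PARP14 is chr3:122680800-122680829, that of PARP12 is chr7:140062942-140062971 and that of ZC3HAV1 is chr7:139109378-139109407.
DTX3L and PARP9: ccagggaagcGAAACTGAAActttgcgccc
PARP14: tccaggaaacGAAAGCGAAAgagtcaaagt
PARP12: ggcgggaaacGAAACCGAAAgcggccccgg
ZC3HAV1: gcggaaatcgGAAATCGAAActtacaagtg

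All 4 cores read GAAANNGAAA on the + strand, and the variable pair of bases differed in each. The core at DTX3L and PARP9 lay at chr3:122564332-122564341. It spans the annotated start of DTX3L and lies 32 bp upstream of the PARP9 start, within an intron of a longer PARP9 transcript. The first base of this core was 4 bp from the peak center. The PARP14 core at chr3:122680810-122680819 ended 20 bp before the PARP14 start, and a GAS match (TTCCAGGAA, from the pattern TTCNNNGAA) lay at chr3:122680799-122680807. The PARP12 core at chr7:140062952-140062961 ended 1 bp before the PARP12 start. The ZC3HAV1 core at chr7:139109388-139109397 was the exception in position relative to the main start, lying 323 bp downstream of it in an untranslated exon. The start nearest to the center of this peak, 83 bp away, was a different one. The cores at DTX3L and ZC3HAV1 were followed by CT, which gives GAAANNGAAACT. This longer form occurred in 2 of the 8 interferon-linked peaks and in 0.811% of all peaks, and it was looked at after the values were seen.

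The start region that PARP9 and DTX3L share and the PARP1 and PARP2 starts are printed so that the presence and the absence of a core can be read directly. The shared region is chr3:122564286-122564367 on the + strand, where DTX3L starts at base 53 and reads to the right and PARP9 reads to the left. Capitals mark ISRE core or GAS matches. The PARP1 stretch is chr1:226408125-226408254 on the - strand and the PARP2 stretch is chr14:20343515-20343644 on the + strand, each with the outermost annotated start at base 101. Neither holds a match, although a GAS match lay 146 bp upstream of the main PARP2 start, outside the printed stretch.
DTX3L and PARP9 start: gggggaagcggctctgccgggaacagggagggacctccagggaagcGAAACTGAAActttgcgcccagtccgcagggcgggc
PARP1 start: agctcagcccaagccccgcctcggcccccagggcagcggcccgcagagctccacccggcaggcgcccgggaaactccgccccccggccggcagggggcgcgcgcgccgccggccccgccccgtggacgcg
PARP2 start: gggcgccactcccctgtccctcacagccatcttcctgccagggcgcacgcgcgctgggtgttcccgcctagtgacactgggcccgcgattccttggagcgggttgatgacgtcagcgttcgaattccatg

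H3K27ac was higher after IFN-β beyond counting error at the shared start of PARP9 and DTX3L. The counting intervals included 0 at PARP14, at PARP12 and at both ZC3HAV1 peaks, with differences of 0.24 at the ZC3HAV1 start, -0.05 at PARP14 and -0.28 at PARP12. They lay below 0 at the PARP10, PARP1 and PARP2 peaks. The whole table was shifted toward lower values after IFN-β, with a median difference of -0.69 log2 over all peaks, so each difference is also given relative to that median. Of the 8 interferon-linked peaks, 2 had a difference above 0, against 5.93% of all peaks and 2.81% of those within 1 kb of a protein-coding start (start peaks). A difference at least 1 log2 above the table median was found at 1 of the 8, against 2.51% of all peaks and 1.22% of start peaks. With a limit of 0.58 log2 the count was 3 of 8, against 8.58% of all peaks and 4.25% of start peaks. A difference above the table median itself was found at 4 of 8, against 49.1% of all peaks and 40.3% of start peaks, which is near the background share. The 3 PARP1 and PARP2 peaks gave 0 under each of these rules. The interferon-linked peaks had a median of 0.16 relative to the table median, between -0.46 and 1.15, and a median of -0.53 as deposited. More of the mark per cell and more cells carrying it cannot be told apart in these values.

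**Figure D1:**
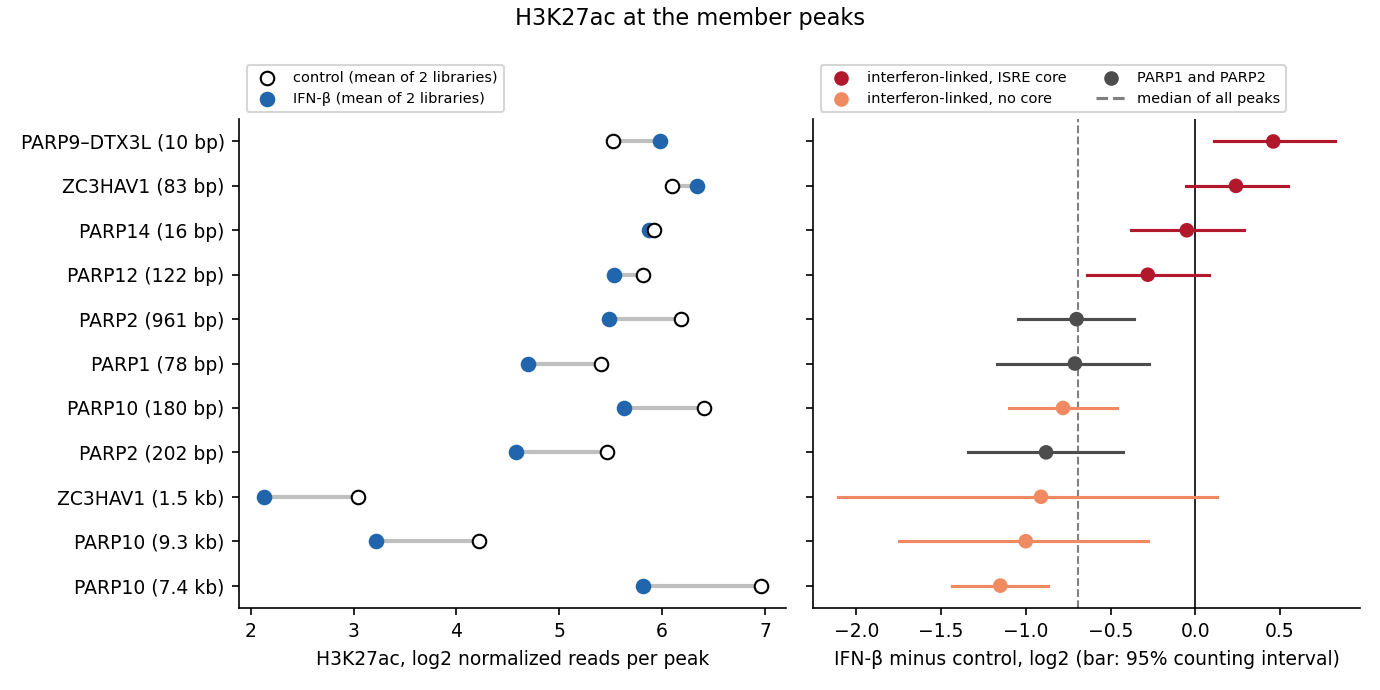
The left panel plots the log2 normalized H3K27ac reads of each of the 11 member peaks in the control (open) and after IFN-β (filled), as means of 2 libraries, with the distance from peak center to the member's start in brackets. The right panel plots the IFN-β minus control difference with its 95% counting interval, and the 4 interferon-linked peaks with an ISRE core lie between -0.28 and 0.46, to the right of the table median of -0.69.

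PARP9 and its partner ligase DTX3L share a start region in which their main starts lie 38 bp apart in opposite directions, so that a single peak at chr3:122563828-122564828 covered both. Its log2 signal was 5.52 in the control and 5.98 after IFN-β, or 45.9 and 63.1 normalized reads. The difference of 0.46 had a counting interval of 0.11 to 0.82, which lies above 0, from about 103 control and 190 IFN-β reads. It was the highest of the member peaks and was 1.15 above the table median (counting interval 0.80 to 1.51), or 2.22-fold. Over the whole table, 98.4% of peaks had a lower difference and 300 had a higher one. The control signal of this peak was above 63.3% of all peaks, whereas its IFN-β signal was above 93.2% of them. The reads cannot be assigned to PARP9 or to DTX3L.

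PARP14, a macrodomain-containing mono-ADP-ribosyltransferase, had a peak at chr3:122680377-122681377 with its center 16 bp from a start, in an untranslated exon. The log2 signal was 5.92 in the control and 5.87 after IFN-β. The difference of -0.05 had a counting interval of -0.38 to 0.29, which includes 0. Relative to the table median it was 0.64, with an interval of 0.31 to 0.98. The signal at PARP14 was thus not separated between the groups as deposited, and its interval lay above 0 once the table median was taken out. Its difference was above that of 92.9% of all peaks.

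ZC3HAV1, the antiviral RNA-binding member, had a peak at chr7:139108771-139109771 that lay 83 bp from a start and gave 6.10 in the control and 6.34 after IFN-β. This was the highest IFN-β signal among the members and was above 97.2% of all peaks. The difference of 0.24 had a counting interval of -0.05 to 0.54, so counting error alone does not separate it from 0. It was 0.93 above the table median, with an interval of 0.64 to 1.23, and 590 peaks had a higher difference. Its interval overlapped that of the PARP9 and DTX3L peak. The second ZC3HAV1 peak, at chr7:139133079-139134079, was 1457 bp from an upstream start of the gene but only 165 bp from a start of TTC26. It was weak, at 3.04 in the control and 2.13 after IFN-β, about 19 and 13 reads, and its difference of -0.91 had an interval of -2.11 to 0.13.

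PARP12, a mono-ADP-ribosyltransferase with zinc fingers, had a peak at chr7:140062573-140063573 with its center 122 bp from a start. It gave 5.81 in the control and 5.53 after IFN-β, a difference of -0.28 with an interval of -0.64 to 0.08. Relative to the table median this was 0.41, with an interval of 0.05 to 0.77. Among the 4 peaks with an ISRE core PARP12 was the lowest, although its core was the nearest to the main start without crossing it. The order of the 4 was PARP9 and DTX3L, ZC3HAV1, PARP14 and PARP12, and the counting intervals of each neighboring pair in that order overlapped.

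PARP10, a mono-ADP-ribosyltransferase, differed from the others in where its peaks lay. Its main annotated start was 3989 bp from the nearest peak center, and the 3 peaks within 10 kb of any of its 21 distinct starts lay close to starts of other genes. The peak nearest to a PARP10 start was 180 bp from it and 228 bp from a start of GRINA, and gave 6.41 in the control and 5.63 after IFN-β. Its difference of -0.78 (interval -1.10 to -0.46) was -0.09 relative to the table median, above that of 39.0% of peaks. The other two were 7445 and 9278 bp from PARP10 and 179 and 139 bp from starts of PLEC, which encodes the cytoskeletal linker plectin. Of these the nearer gave 6.96 and 5.81, a difference of -1.15 with an interval of -1.43 to -0.87, and the farther gave 4.22 and 3.22, a difference of -1.0 with an interval of -1.75 to -0.28. The nearer was also below the table median beyond counting error, at -0.46 with an interval of -0.74 to -0.18. None of the 3 held an ISRE core or a GAS match, and none of them can be assigned to PARP10 by distance to its main start.

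PARP1 and PARP2, the DNA-break responders, had peaks that counting error did not separate from the table median. The PARP1 peak at chr1:226407391-226409074, 78 bp from a start, gave 5.41 in the control and 4.70 after IFN-β. Its difference of -0.71 (interval -1.17 to -0.27) was -0.02 relative to the table median, with an interval of -0.48 to 0.42. The PARP2 peak at chr14:20343339-20344339, 202 bp from a start, gave 5.46 and 4.58, a difference of -0.88 (interval -1.34 to -0.43). Relative to the median this was -0.19, with an interval of -0.65 to 0.26, and it was above 28.2% of all peaks. The further PARP2 peak, 961 bp from a start, gave 6.18 and 5.48, a difference of -0.70 and -0.01 relative to the median. A start of a long noncoding RNA lay 154 bp from the center of the first PARP2 peak, nearer than the PARP2 start. Starts of RPPH1, the RNA component of RNase P, lay 432 and 753 bp from the 2 PARP2 peak centers. The signal of these peaks is therefore not that of PARP2 alone. The control signal of the PARP1 peak and of the nearer PARP2 peak was close to that of the shared PARP9 and DTX3L peak (5.41 and 5.46 against 5.52), whereas after IFN-β they were 4.70 and 4.58 against 5.98. The counting interval of the shared peak did not overlap that of any PARP1 or PARP2 peak.

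**Figure D2:**
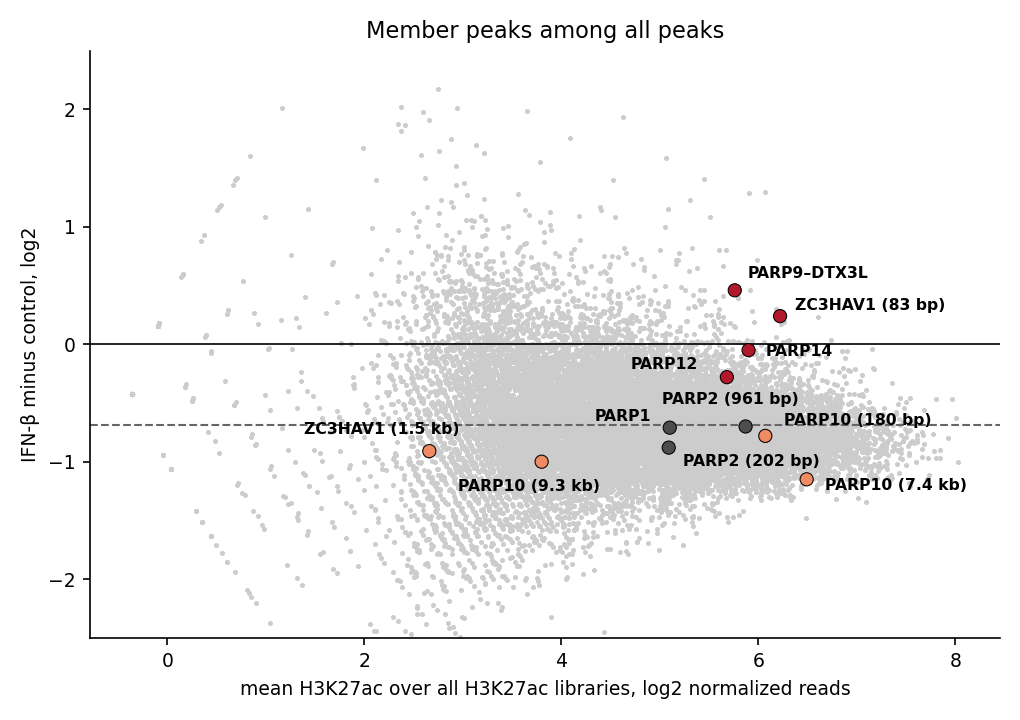
IFN-β minus control difference of each peak (log2) against its mean H3K27ac over the H3K27ac libraries (log2 normalized reads), with all peaks in gray, the median of -0.69 as a dashed line, interferon-linked peaks with an ISRE core in red and without in orange, and PARP1 and PARP2 peaks in dark gray. The 44 peaks beyond 2.5 in either direction are not drawn, and the shared PARP9 and DTX3L peak stands at 0.46 and ZC3HAV1 at 0.24, near the upper edge of peaks of like signal.

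Base composition moved with the difference over the table, and the member values were set against peaks of like GC content and also of like signal. In 10 classes of equal size by GC content the median difference went from -0.47 in the AT-richest class to -0.82 in the GC-richest. The 4 core-bearing member peaks were GC-rich, between 60.6% and 68.8%, where the class medians were -0.73 to -0.80. Within its own GC class, the shared PARP9 and DTX3L peak was above 98.9% of peaks, ZC3HAV1 above 99.2%, PARP14 above 96.6% and PARP12 above 95.2%. Within the class of like mean signal, again of 10, the shares were 99.7%, 99.9%, 98.9% and 93.2%. Each of the 4 thus stood higher among peaks of like GC content or signal than among all peaks. PARP1 was above 56.8% of peaks in its GC class, and the PARP2 peaks, with 47.6% and 48.6% GC, were above 24.1% and 38.4%. The 2 GC-richest member peaks were those of PARP10, at 76.6% and 76.0%, and they were above 55.4% and 9.91% of their class.

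**Figure D3:**
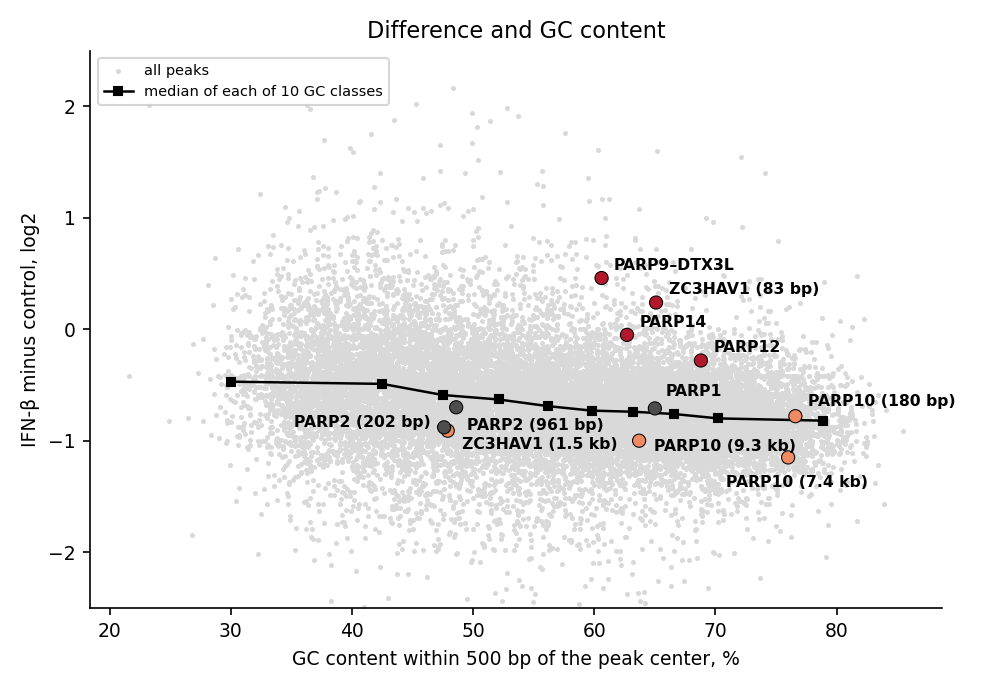
IFN-β minus control difference (log2) against GC content within 500 bp of the peak center (%), with all peaks in gray, the median of each of 10 GC classes as squares, and member peaks colored by group and ISRE core as in the plot against mean signal. The medians go from -0.47 to -0.82 with GC content, and the 4 red points lie above that line at 60.6% to 68.8% GC.

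The 4 interferon-linked peaks with an ISRE core had differences of 0.41 to 1.15 relative to the table median, and the 4 without had -0.46 to -0.09. These ranges did not overlap. The same peaks were also divided by position. All 4 with a core lay within 122 bp of a member start, whereas 3 of the 4 without lay 139 to 179 bp from starts of PLEC or TTC26 and at least 1457 bp from a member start, and the other was shared with GRINA. A core and the identity of the nearest gene cannot be told apart in these 8 peaks. Over the whole table the gap was smaller. The median difference was -0.58 in the 2337 peaks with a core and -0.70 in the peaks without. Among peaks within 1 kb of a protein-coding start, 50.9% of the 981 with a core and 39.2% of the 10353 without were above the table median. The median GC content of these start peaks was 59.2% with a core and 64.6% without. The part of GC content in this gap was not tested. Distance from the core to the start separated the start peaks further. A difference above 0 was found in 20.1% of the 189 peaks whose core lay within 50 bp of a start, in 4.91% of the 265 with a core at 51 to 200 bp, and in 6.26% of the 527 with a core beyond 200 bp. The share was 2.27% without a core. These classes use the nearest annotated start of any protein-coding gene, which need not be a main start. The cores of PARP9 and DTX3L, PARP14 and PARP12 fell in the nearest class. That of ZC3HAV1 lay 323 bp from its main start, but another ZC3HAV1 start was nearer to the peak center, and the class of this core was not read out. PARP14 (-0.05) and PARP12 (-0.28) were not above 0, like most peaks of the nearest class, and ZC3HAV1 (0.24) was above 0. The longer form GAAANNGAAACT was counted over all peaks and not over start peaks alone. It was held by 163 peaks, of which 80 were start peaks, and 25.8% of the 163 had a difference above 0. The share was 5.93% of all peaks. The 163 include the DTX3L and ZC3HAV1 peaks, whose values were seen before this form was looked at.

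The other motifs divided the members less. GAS matches were found in 3 of the 8 interferon-linked peaks (PARP9 and DTX3L, PARP14 and the weak second peak of ZC3HAV1) and in 1 of the 3 comparison peaks, against 21.8% of all peaks. The GAS match at DTX3L lay 260 bp into the gene, in a coding exon. GC boxes (GGGCGG) were found in 7 of the 8 and in all 3 comparison peaks, against 67.3% of all peaks and 90.8% of start peaks. AP-1 matches (TGANTCA) were found in 1 of 8 and 1 of 3, and E-boxes (CACGTG) in none of the 11, against 33.4% and 17.9% of all peaks. Any such match is a run of letters and not evidence of binding.

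The chromosome 3 locus was followed over 250 kb on either side of the DTX3L start, where 10 peaks were found. The 2 member peaks had a median difference of 0.895 relative to the table median, or 0.205 as deposited, and PARP14 starts 116501 bp beyond DTX3L. Between them lay a PARP15 intron peak 45.7 kb from the DTX3L start, with an ISRE core. It was weak, at 2.47 in the control and 2.88 after IFN-β (about 12 and 22 reads), and its difference of 0.41 had an interval of -0.62 to 1.60. An intergenic peak 11206 bp before the PARP14 start also held a core and gave 4.00 and 3.63, a difference of -0.37 with an interval of -1.08 to 0.32. It lay outside the 10 kb limit and was not a member. On the other side, a core-bearing peak in a KPNA1 intron at -81.0 kb gave 4.28 and 4.33, and the KPNA1 start at -49.6 kb, without a core, gave 5.64 and 5.00. The core-bearing FAM162A start at -180 kb gave 4.35 and 4.29, a difference of -0.06 that was close to the -0.05 of PARP14. WDR5B, at -148 kb, also had a core, and its difference was -0.76. The core-bearing peaks of the locus thus differed among themselves and were not limited to member starts. The peaks nearest to MIX23 and SLC49A4, without a core, had differences of -0.54 and -0.48, above that of WDR5B. The shared PARP9 and DTX3L peak was the only one of the 10 whose counting interval lay above 0.

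**Figure D4:**
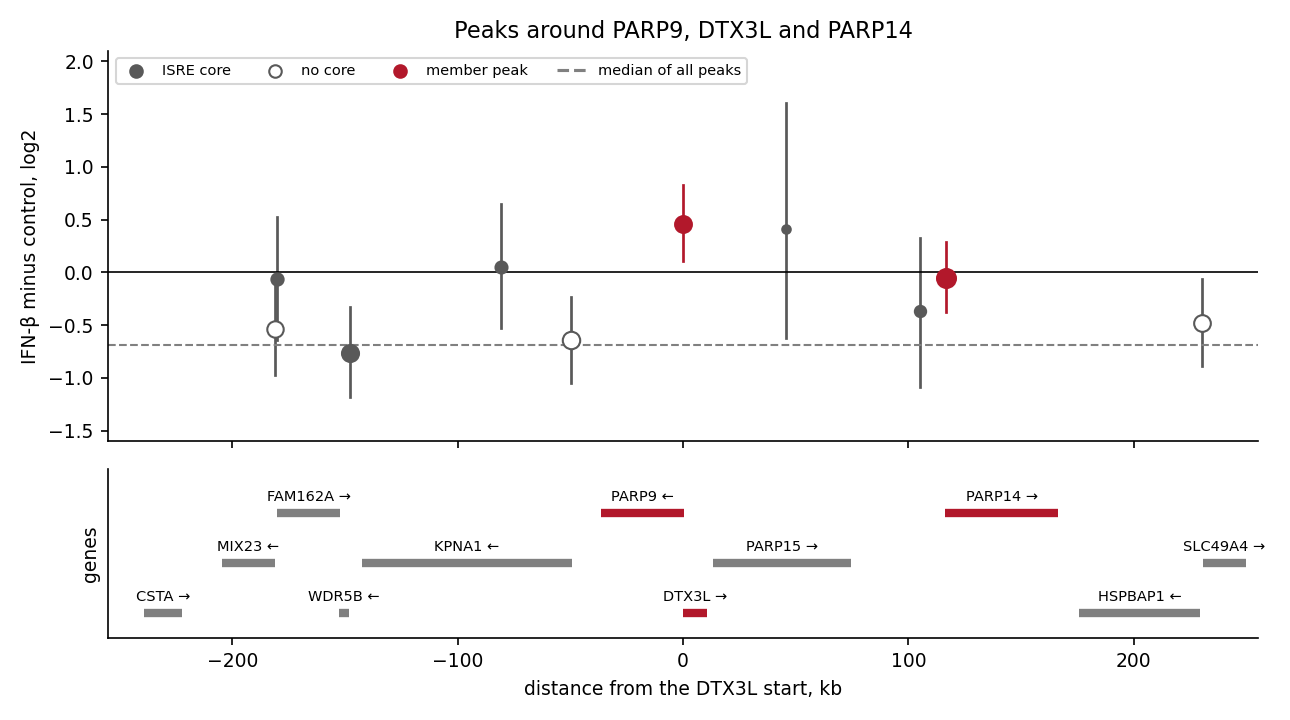
The upper panel plots the IFN-β minus control difference (log2, bars for the 95% counting interval) of the 10 peaks within 250 kb of the DTX3L start against distance from that start in kb, with point area following control signal, member peaks in red and peaks without an ISRE core open, and the lower panel shows the genes with their direction. The PARP9 and DTX3L peak at 0 kb reads 0.46 and the PARP14 peak at 117 kb reads -0.05, against a table median of -0.69.

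The rest of the PARP family was read at the peak nearest to each gene's starts. All 10 of the other family members had a peak within 10 kb, with a median difference of -0.79, and 1 of the 10 was above 0. This was PARP15, through the intron peak 5555 bp from a start described for the chromosome 3 locus. PARP16, which lies at the endoplasmic reticulum, followed at -0.39, and the vault-associated PARP4 at -0.71. PARP11 was lowest at -1.15. For the interferon-linked genes read in the same way, 5 distinct peaks had a median of -0.05 and 2 were above 0. A difference above 0 was found in 5.93% of all peaks and in 2.81% of start peaks. This reading leaves out the further PARP10 and ZC3HAV1 peaks, all of which were below the table median. The median over all 8 interferon-linked peaks was -0.53.

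Enzymes that remove ADP-ribose had a peak for 5 of 6 genes, with a median difference of -0.65. Of these peaks 1 was above 0, against 5.93% of all peaks. This was PARG, the glycohydrolase that cuts ADP-ribose chains, at 3.35 in the control and 3.41 after IFN-β, with a counting interval of -0.76 to 0.90. ADPRS, a hydrolase for serine-linked ADP-ribose, was at -0.50, and OARD1 was at -0.65. Among 4 other Deltex ligases only DTX2 had a peak, and it stood at the lowest value of the table in both groups.

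The interferon pathway genes gave a scale for the member values. IRF9, the DNA-binding part of ISGF3, was at 5.11 in the control and 6.40 after IFN-β (difference 1.29), and its partner STAT2 was at 5.66 and 6.12 (difference 0.46). The receptors IFNAR1 and IFNAR2 and the kinases JAK1 and TYK2 were between -0.67 and -0.41. A reference list of 37 interferon-stimulated genes, without the members, had 28 distinct peaks for 30 genes, with a median difference of 0.445. Of the 28 peaks, 25 were above 0, against 5.93% of all peaks. At least 1 log2 above the table median were 18, against 2.51% of all peaks. The largest were OASL at 1.99, IFI6 at 1.94 and TRIM21 at 1.76. The shared PARP9 and DTX3L peak was thus at the middle of that list, ZC3HAV1 below its median, and PARP14 and PARP12 below 0. By the pair of group signals, the 3 start peaks most like the shared peak, among all 11334 start peaks apart from the members, were those of IFIT5 at 5.58 and 5.97, STAT2, and IRF1 at 5.67 and 5.83, with distances of 0.0608, 0.198 and 0.212 log2 over 2 group values.

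**Figure D5:**
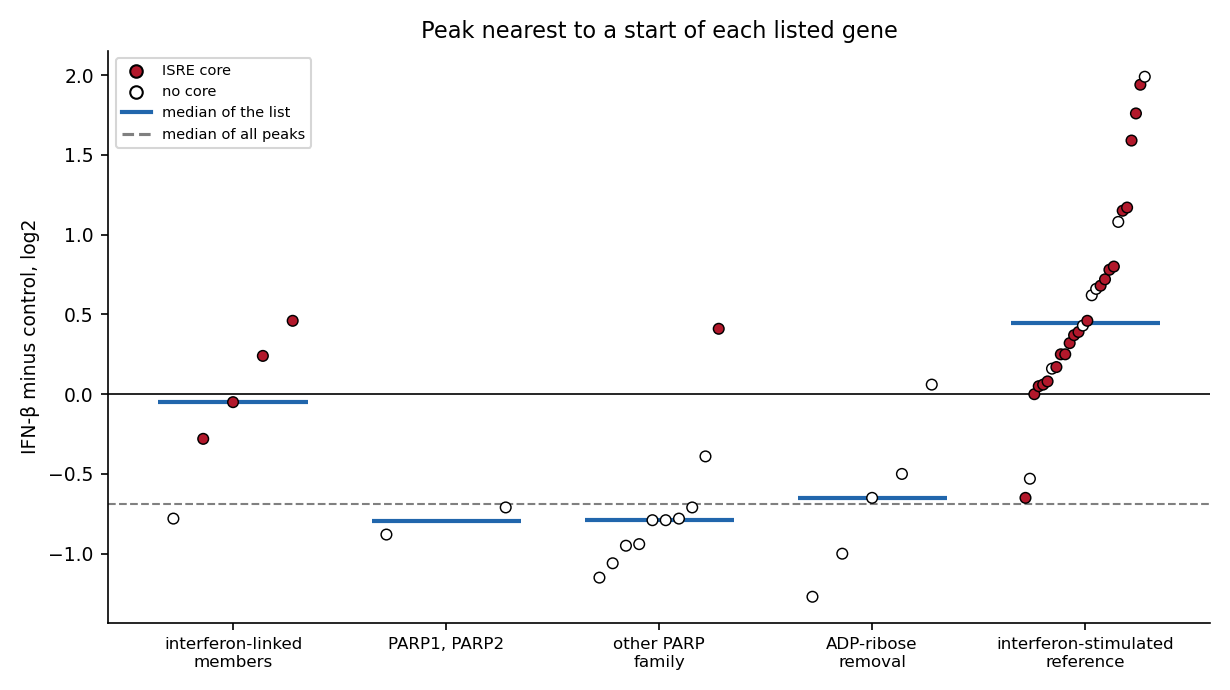
Each point is the IFN-β minus control difference (log2) of the peak nearest to a start of a listed gene, filled where the peak holds an ISRE core, with the list median as a blue bar and the table median of -0.69 as a dashed line. The 5 interferon-linked peaks have a median of -0.05, between the other PARP family at -0.79 and the interferon-stimulated reference at 0.445. The further PARP10 and ZC3HAV1 peaks are not drawn.

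Of 10 colon epithelium markers 5 had a peak within 10 kb, namely EPCAM, KRT8, KRT18, CDH1 and CDX2. None of the 5 had a difference above 0, against 5.93% of all peaks, and relative to the table median they went from -0.40 at CDX2 to 0.52 at KRT8. None was found for KRT20, CDH17, CDX1, VIL1 or LGALS4. Of 5 fibroblast markers COL1A1 had a peak. The part of these markers in the member values was not tested.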

How the data were processed

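H3K27ac ChIP-seq libraries of 2 IFN-β and 2 control samples and 1 input were processed by the authors. The submitters' processing notes name bcl2fastq 2.17, fastp 0.19.3, Bowtie2 (written as version 2.25), SAMtools, MACS2, DiffBind and DESeq2, the last 4 without a version. The authors merged peaks over the libraries and deposited, for each of 20087 GRCh38 peaks, the log2 mean normalized reads per group, after subtraction of input and scaling for library size. Such scaling sets how far all peaks shift between groups. The fold change, p-value and FDR columns hold the authors' own comparison and were not used.

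Differences between the deposited log2 values were taken peak by peak, and no test was run because the table holds 1 mean per group. The GRCh38 reference held all 39 of the table's chromosome and contig names and gave the sequences, and starts were those of GENCODE release 44. Counting intervals are exact Clopper-Pearson 95% intervals of the share of reads from IFN-β. The approximate reads rest on the lowest log2 values, -0.59 and -0.17, being 1 read in each of 2 libraries. The next lowest values were 1.49 and 1.43 times these. Input subtraction makes them approximate, and depth was about 1630000 and 1970000 reads in peaks for the IFN-β and control groups. The intervals were checked on simulated counts drawn from the same read model, without input subtraction or spread between libraries. That check cannot show how well they hold for these data. Python 3.11.15, numpy 2.4.6, pandas 2.3.3, scipy 1.17.1 and matplotlib 3.10.9 were used.

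The members and gene lists were chosen with earlier results of these data known. All member peaks were accounted for, with the nearest peak of each gene, the 3 genes of each other list with the highest difference, and the 3 genes most like the shared start named. For the marker lists, genes with and without a peak were named. Some genes and lists under this rule are not reported here. PARP11, the longer ISRE form and the genes of the chromosome 3 locus were named after their values were seen. Alternatives changed the distance to starts, the reference level, the motif window and the peaks kept. No sequence of the PARP10 region is printed.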

Additional observations from a re-analysis of the deposited data

How the results depend on the processing

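No paired analysis was possible because the table holds 1 mean per group, and leaving out a library could not be run for the same reason. The shared PARP9 and DTX3L peak was 1.15 above the table median. Alternatives that changed only the distance or the peaks kept could not alter this value. Against other reference levels it was 1.18 to 1.21, and it was 0.46 with no centring. The count of interferon-linked peaks above 0, which was 2, was 1 with gene starts alone, 5 against the median of the same GC class, 4 against the same signal class, and 4 against the median of start peaks. It was 4 against the table median, an alternative chosen after seeing the data. The count at least 1 log2 above the median, which was 1, was 0 with no centring, 2 against the GC class, 2 against the signal class and 3 from 0.58 log2. The median of the interferon-linked peaks, 0.16 relative to the table median, was 0.525 within 5 kb, 0.525 with gene starts alone, 0.64 within 1 kb, and -0.53 with no centring, where it was below 0. It was 0.64 for peaks nearer to a member start than to any other protein-coding start, also chosen after seeing the data. With no centring the locus median was 0.205 in place of 0.895, and that of PARP1 and PARP2 was -0.71 in place of -0.02. These shifts follow from the peaks or reference level each alternative keeps. The other 48 of 65 values moved by less than the counting interval or, for counts, by less than 1.5 times. They include values that an alternative could not change, such as that of the shared peak when only the peaks kept changed. The ISRE core was found in 4 interferon-linked peaks under both other windows, and in 5 with 1 mismatch, a pattern that 69.5% of all peaks hold. Few reads limit the weak peaks of ZC3HAV1 and PARP15.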
